A study of Mus musculus with 7 samples.

Results

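The genes that make cholesterol and fatty acids were examined in mouse prostate with an activated Notch1 receptor. The set held 35 genes, chosen by name: 17 enzymes of the mevalonate and sterol pathway, 4 genes that sense sterols and control the pathway, 4 that supply acetyl-CoA and NADPH, 3 of fatty acid synthesis and 7 of fatty acid desaturation and elongation. Of these, 34 matched at least 1 probe of the arrays and 31 passed the filter on dim and missing spots, among 16939 items tested, of which 11822 were named genes. Idi1 matched no probe here. Hsd17b7, Scd1 and Elovl6 had probes but were not tested.

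Expression was measured on 7 arrays, 1 per sample, all of prostate RNA from C57Bl/6 mice. The 3 PB-NICD samples came from ARR2PB-Cre;ROSA(N1IC) mice, in which Cre is driven by ARR2PB, a promoter made from that of the prostate secretory gene probasin, and releases the Notch1 intracellular domain (NICD, the active part of the receptor) from the ROSA locus; per the labels, these mice form prostatic intraepithelial neoplasia, a premalignant overgrowth of the epithelium. The 4 controls were prostates of ROSA(N1IC) mice, described as wild-type for NICD, so the ROSA(N1IC) allele is named for both groups and Cre only for PB-NICD. Ages are not given in the labels, nor whether each sample is 1 animal, so p-values measure the spread between these samples. Each array set the sample, in red, against the same universal mouse reference RNA, in green. A value is the log2 ratio of sample over reference, and a change is the mean ratio of PB-NICD less that of control.

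Cholesterol is built from acetyl-CoA through mevalonate, squalene and lanosterol, and fatty acids are built from acetyl-CoA through malonyl-CoA, with NADPH as the reductant of both. Many of these genes are targets of the SREBP transcription factors, encoded by Srebf1 and Srebf2. When sterols are scarce, SCAP escorts SREBP from the endoplasmic reticulum to the Golgi, where it is cut and freed to enter the nucleus. When sterols are plentiful, INSIG proteins hold SCAP back, and Insig1 is itself a target of SREBP. In human prostate cancer cell lines, androgens are known to raise lipid synthesis through this system.

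The array labelled PB-NICD 1 stood apart from the others. The median absolute log2 ratio over all items was 0.117 on it, against 0.451 and 0.429 on PB-NICD 2 and PB-NICD 3 and 0.339 to 0.434 on the control arrays, so its ratios lay closer to 0. Notch1 read 2.63 and 2.74 on PB-NICD 2 and 3, against 0.05, 0.30, 0.76 and 0.67 on controls 1 to 4. On PB-NICD 1 its spot was marked as an outlier, and the value it held, 0.64, lay within the control range. Notch1 rose by 2.24 ± 0.22 (SE) with that spot left out (limma, adjusted p = 0.00168), and with it kept the change was 1.56 (adjusted p = 0.111). Across 10384 items with values on all arrays, PB-NICD 1 correlated with the other PB-NICD arrays at r = 0.832, PB-NICD 2 with PB-NICD 3 at 0.955 and controls with each other at 0.932 to 0.962 (points are genes, not replicates). Slide 1 carried PB-NICD 1 with controls 1 and 2, and slide 2 carried the other 4 arrays. Well above background in the sample channel were 53.7%, 61.4% and 67.2% of probes on PB-NICD 1 to 3, against 45.7%, 45.3%, 59.2% and 61.1% on controls 1 to 4. In the reference channel these shares were 64.2%, 65.3% and 79.6% for PB-NICD, against 73.3%, 80.5%, 82.1% and 89.3% for control. The part that these differences play in the ratios below was not tested.

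Promoters of 4 genes are shown because SREBP is known to act at promoters with neighbouring factors such as NF-Y, which reads CCAAT, and because Insig1, Msmo1 and Mvk were among the genes with the lowest adjusted p, while Hmgcs1 held the only sterol element found. They were picked after their values were seen. Fads2 is not shown, though its adjusted p by limma, 0.0836, was below that of Mvk, 0.0968. The promoter of Fads2 held no CCAAT, while that of Mvk held 5. Each window is the 250 bases before the annotated start, from RefSeq on the GRCm38.p6 assembly, written 5′ to 3′ on the gene's strand. Capitals mark CCAAT on either strand (ATTGG on the other) and, in Hmgcs1, the short sterol element TCACNCCAC.
Insig1, chr5:28071162-28071411, plus strand: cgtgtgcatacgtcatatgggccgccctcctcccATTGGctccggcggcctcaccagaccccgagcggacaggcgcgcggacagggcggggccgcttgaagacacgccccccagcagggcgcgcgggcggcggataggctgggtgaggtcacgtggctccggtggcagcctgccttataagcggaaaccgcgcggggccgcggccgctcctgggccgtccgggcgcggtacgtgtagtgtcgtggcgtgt
Msmo1, chr8:64733579-64733828, minus strand: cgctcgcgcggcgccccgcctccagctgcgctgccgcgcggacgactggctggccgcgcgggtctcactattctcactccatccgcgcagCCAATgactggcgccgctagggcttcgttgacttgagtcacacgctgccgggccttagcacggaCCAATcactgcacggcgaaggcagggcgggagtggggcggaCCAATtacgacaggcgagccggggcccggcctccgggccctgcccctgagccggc
Mvk, chr5:114444019-114444268, plus strand: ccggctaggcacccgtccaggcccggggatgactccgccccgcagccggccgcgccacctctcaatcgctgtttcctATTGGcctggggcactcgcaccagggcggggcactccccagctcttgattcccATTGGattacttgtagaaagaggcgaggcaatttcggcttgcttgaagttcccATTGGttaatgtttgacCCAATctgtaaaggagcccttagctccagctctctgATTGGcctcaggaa
Hmgcs1, chr13:119690101-119690350, plus strand: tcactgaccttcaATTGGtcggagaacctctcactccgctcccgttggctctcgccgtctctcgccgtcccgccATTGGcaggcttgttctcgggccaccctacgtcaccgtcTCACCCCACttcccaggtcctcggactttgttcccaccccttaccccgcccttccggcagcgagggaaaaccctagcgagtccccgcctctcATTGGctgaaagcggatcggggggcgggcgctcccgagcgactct
Windows from 250 bases before the start to 50 after were in the RefSeq table for 29 of the 35 genes. CCAAT, searched on both strands, occurred in 24 of the 29, against 41.1% of the 27025 genes in the table. GGGCGG, the core of an Sp1 site, occurred in 23 of 29, against 38.2%. CACGTG, an E-box, occurred in 6 of 29, against 8.09%. TCACNCCAC occurred in 1 gene, Hmgcs1, at position -137 from the start, against 1.44%, and its longer form, with an A before it, in none, against 0.27%. A match is a run of letters and not a measured binding site, and its absence from a window of this length says nothing about the factor.

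None of the 31 genes was called higher or lower in PB-NICD prostates by limma at an adjusted p of 0.05, where 2.67% of all items were called, 2.27% lower and 0.401% higher. At an unadjusted p of 0.05, 10 genes were lower and 0 higher, against 11.8% and 3.02% of all items. In 11 genes every PB-NICD value lay below every control value: Mvk, Mvd, Fdps, Lss, Msmo1 and Dhcr7 among the sterol enzymes, Insig1, the supply enzymes Acat2 and Acly, the fatty acid synthase Fasn and the desaturase Fads2. That is 35.5% of the 31, beside 14.3% of all items. No gene had every PB-NICD value above every control value, beside 5.09% of items. Over the 21 genes with values on all 7 arrays the count was 6, beside 13.4% of such items. Without PB-NICD 1, 8 of 29 genes (27.6%) lay wholly lower, beside 20.2% of items, and 6 of 29 wholly higher, beside 15.3% of items. The genes lower in that case were Hmgcs1, Mvd, Fdps, Msmo1, Dhcr7, Insig1, Acly and Fasn, and those higher were Fdft1, Cyp51, Sc5d, Srebf2, Acss2 and Me1. Mvk, Lss and Cyp51 were then read from dimmer probes, and Acat2 and Fads2 had too few values left. PB-NICD 1 by itself lay below all controls for 22 of its 31 genes. The same held for 13 of 27 genes on PB-NICD 2 and 13 of 30 on PB-NICD 3. For all items these shares were 45.5%, 32.7% and 30.2%. On PB-NICD 1, all 22 genes with a control mean above 0 read below that mean, and 6 of the 9 with a control mean below 0 read above it. The same counts were 12 of 18 and 4 of 9 on PB-NICD 2, and 14 of 21 and 4 of 9 on PB-NICD 3. These counts were not made over all items, so they cannot tell a trait of the lipid genes from one of the array.

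**Figure D1:**
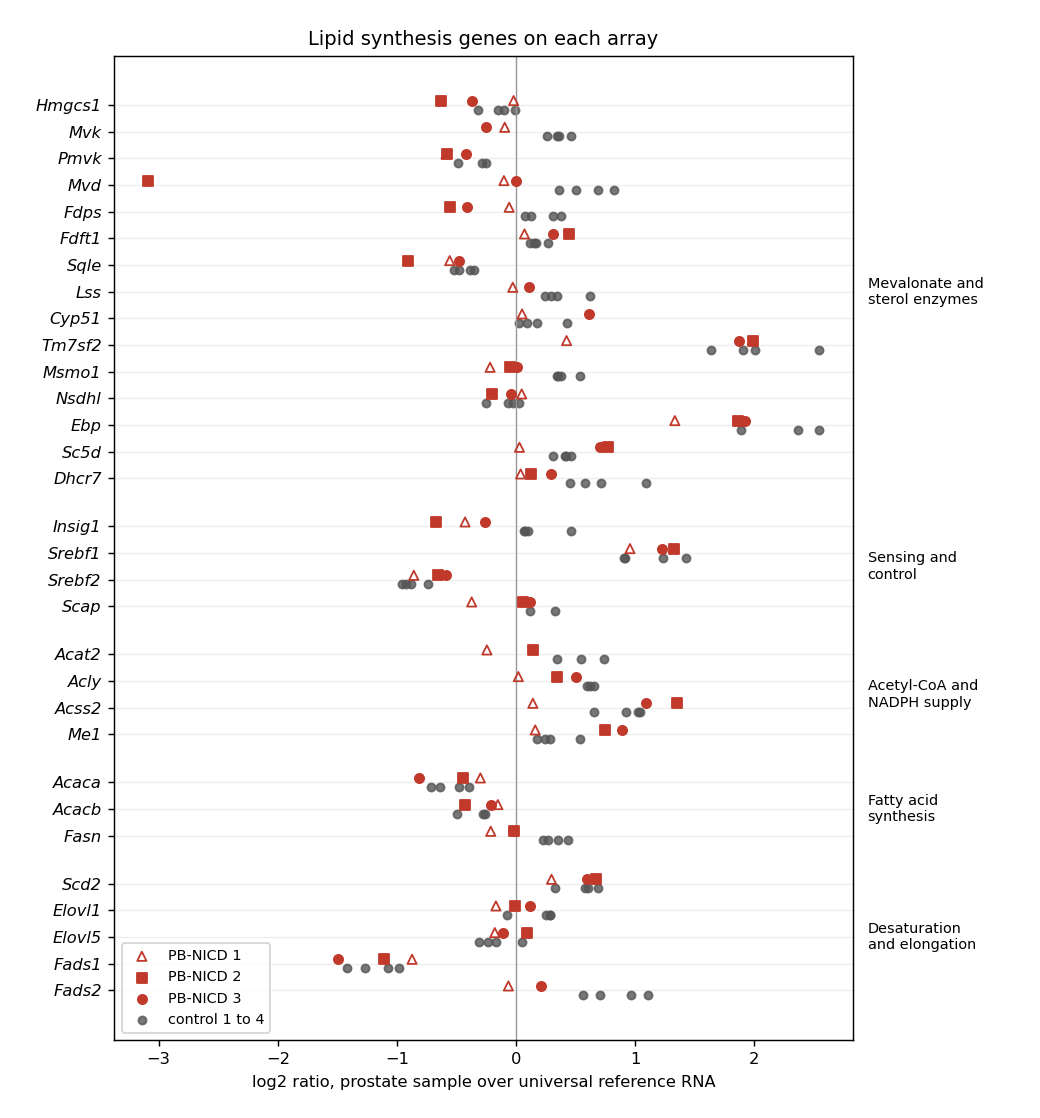
The log2 ratio of sample over universal reference RNA (x axis) is plotted for each of the 31 tested genes (rows, by role), with PB-NICD 1 as open triangles, PB-NICD 2 and 3 as filled squares and circles and the 4 controls as grey dots. Mvd on PB-NICD 2 lies far left at -3.09, Insig1 and Fdps have all red symbols left of the grey dots, and most open triangles lie near 0.

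The slide changed which genes passed. With the slide as a fixed block, 6 genes were lower at an adjusted p of 0.05 and 0 higher, which is 19.4% of the 31, beside 7.05% of all items lower and 1.08% higher. These were Fads2 (adjusted p = 0.00956), Dhcr7 (0.0222), Insig1 (0.0327), Msmo1 (0.0348), Mvk (0.0465) and Fdps (0.04995). With the slide as a random block the count was 5, without Fdps, and 0 higher, beside 4.91% of items lower and 0.779% higher. Slide 2 holds PB-NICD 2 and 3 and controls 3 and 4. Within it, Fdps (-0.83) and Dhcr7 (-0.69) were called lower and no gene higher. Of 16773 items there, 3.82% were called lower, and 449 items were called higher. Fads2 (-0.83) was lower too, on PB-NICD 3 alone, since its PB-NICD 2 spot was dropped as an outlier. Without PB-NICD 1 the only gene called was Fdps, at -0.71 (adjusted p of 0.0142), beside 3.89% of items lower and 3.50% higher. Insig1 was then at -0.64 (adjusted p = 0.0509). In the sample channel alone, none of the 31 was called, beside 1.69% of all items. Here and below, a single channel was separated after both had been normalized together, so the other channel still enters through the normalization.

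The median change of the 31 genes was -0.21 and that of all items -0.05, and 20 genes (64.5%) had a change below 0, as did 59.0% of items. Centring each array's ratios on their median moved the median of all items to 0.12 and that of the 31 genes to 0.10. The median of the mevalonate and sterol enzymes was -0.34, with 11 of 15 below 0. Of the 15, 6 (40%) lay wholly below the controls, beside 14.3% of all items. With values on all 7 arrays the count was 4 of 10, beside 13.4% of such items. The medians of the other groups were -0.12 for sensing and control, -0.19 for supply, 0.03 for fatty acid synthesis and -0.03 for desaturation and elongation. Relative to each gene's control mean, the median of the sterol enzymes was -0.37, -0.43 and -0.22 on PB-NICD 1 to 3, where all items had -0.13, -0.03 and -0.02. The sterol enzymes were the group that lay below all items on each PB-NICD array; the supply genes, at -0.69 on PB-NICD 1, were at 0.08 and 0.18 on PB-NICD 2 and 3.

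**Figure D2:**
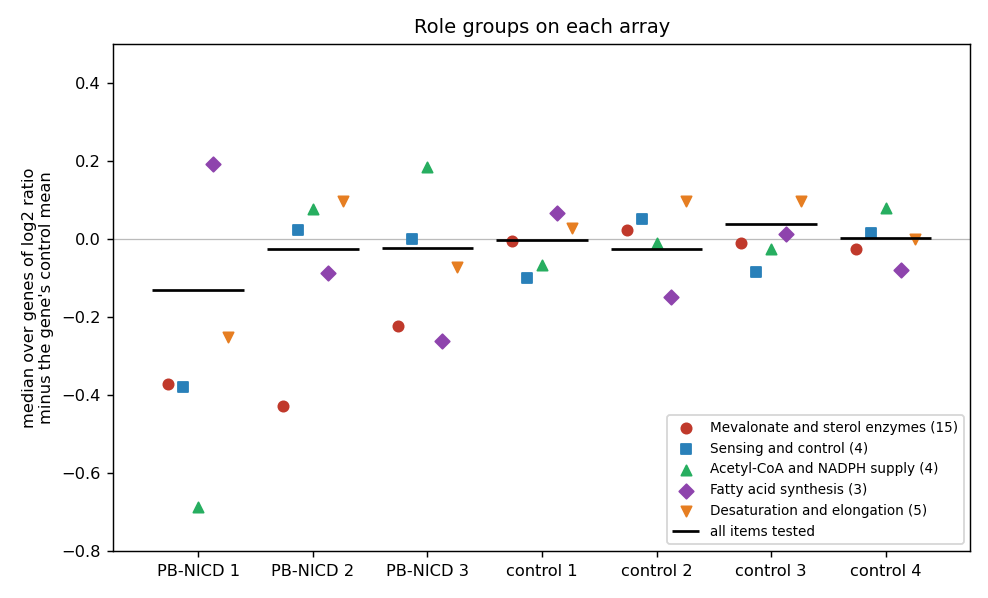
For each array (x axis), the median over the genes of a role group of the log2 ratio minus the gene's control mean (y axis) is shown by a symbol, with the number of genes in the legend, and a black line gives the median over all items tested. The sterol enzymes lie at -0.37, -0.43 and -0.22 on the PB-NICD arrays, and the supply genes reach -0.69 on PB-NICD 1 only.

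Among the mevalonate enzymes, Mvk, Mvd and Fdps had groups that did not overlap. Mvk, the kinase that phosphorylates mevalonate, had log2 ratios of -0.09 and -0.25 on PB-NICD 1 and 3, against 0.46, 0.26, 0.35 and 0.36 on controls 1 to 4. Its spot on PB-NICD 2 was an outlier and was dropped from the fit. The change was -0.53 ± 0.14 (SE, 2 PB-NICD and 4 control values, adjusted p = 0.0968). A dimmer probe of Mvk, measured on all arrays, had a change of -0.23 and overlapping groups, so the probes differ in size.

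Mvd, which decarboxylates mevalonate diphosphate, read -0.10, -3.09 and 0.00 on PB-NICD 1 to 3, against 0.36, 0.69, 0.51 and 0.83 on controls 1 to 4. PB-NICD 2 lies far below every other array, and the other PB-NICD arrays also lie below the lowest control. The spot was well above background on 2 of the 3 PB-NICD arrays and on all 4 controls. The change, -1.66 ± 0.64 (SE), was the largest of the set, with a 95% interval of -3.09 to -0.23 and an adjusted p of 0.246. Its size and rank rested on PB-NICD 2: without that array the change was -0.65, and those of Tm7sf2 (-0.87) and Fads2 (-0.77) were larger in size. Fdps, which makes farnesyl diphosphate, read -0.06, -0.55 and -0.41 on PB-NICD 1 to 3, against 0.13, 0.08, 0.32 and 0.38 on controls 1 to 4. The gap between the groups was narrowest at PB-NICD 1. The change was -0.56 ± 0.15 (SE, adjusted p = 0.0968), and it was -0.16 within slide 1 and -0.83 within slide 2.

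Hmgcs1, the synthase that makes HMG-CoA, had a change of -0.19 (95% interval -0.56 to 0.17). It read -0.02 on PB-NICD 1, inside the control range of -0.32 to -0.01, and -0.63 and -0.37 on PB-NICD 2 and 3, below it. Pmvk, which phosphorylates phosphomevalonate, had a change of -0.19 (-0.50 to 0.12) with overlapping groups. So the first enzymes of the route held both separated and interleaved groups.

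In the squalene and lanosterol branch, Msmo1 and Dhcr7 had groups that did not overlap. Msmo1, a monooxygenase that strips methyl groups from sterols, read -0.22, -0.05 and 0.01 on PB-NICD 1 to 3, against 0.54, 0.35, 0.35 and 0.38 on controls 1 to 4. The groups did not overlap and the spread within each was small. The change was -0.49 ± 0.12 (SE, adjusted p = 0.0735). In the reference channel alone Msmo1 differed by 0.32 ± 0.14 (SE, PB-NICD minus control), and in the sample channel alone by -0.17 ± 0.18 (SE). The part of each channel in the ratio difference was not tested. In other genes with separated groups, the reference channel differed by 0.53 in Mvd, 0.28 in Fads2, 0.24 in Acly and 0.23 in Mvk. The SE of these were 0.29, 0.11, 0.14 and 0.12. For Dhcr7, Fdps, Fasn and Lss it differed by 0.15, 0.13, -0.03 and -0.11. By limma no gene of the set was called in the reference channel, where the lowest adjusted p was 0.393, for Acat2. Dhcr7, the reductase of the last step to cholesterol, read 0.04, 0.13 and 0.30 on PB-NICD 1 to 3, against 0.46, 0.58, 1.09 and 0.72 on controls 1 to 4. All PB-NICD values lay below the lowest control, and controls 3 and 4 were the highest. The change was -0.56 ± 0.17 (SE, adjusted p = 0.130), and a dimmer probe gave -0.24 with overlapping groups.

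The remaining enzymes of this branch were mixed. Lss, lanosterol synthase, had a change of -0.34 (-0.70 to 0.02) on 2 PB-NICD values, and the dropped outlier spot on PB-NICD 2, at 0.53, lay among the controls. A dimmer probe of Lss, measured on all arrays, had a change of -0.07 and overlapping groups. Ebp, a sterol isomerase, had a change of -0.56 (-1.07 to -0.05, adjusted p = 0.280), with overlapping groups and a reference channel that differed by 0.67. Its direction turned in the sample channel alone, at 0.11, and with scaling between arrays, at 1.29. Tm7sf2, a sterol reductase, had a change of -0.59 (-1.41 to 0.23) that rested on PB-NICD 1: it read 0.43 there, 2.00 and 1.88 on PB-NICD 2 and 3 and 1.64 to 2.55 on the controls, and without PB-NICD 1 the change was -0.09. Sqle, squalene epoxidase, had -0.21 (-0.52 to 0.10) and Nsdhl, a sterol dehydrogenase, 0.02 (-0.27 to 0.30). Fdft1 (squalene synthase), Cyp51 (lanosterol demethylase) and Sc5d (a sterol desaturase) had changes of 0.10, 0.15 and 0.10, and without PB-NICD 1 these were 0.20, 0.29 and 0.34, with adjusted p of 0.371, 0.229 and 0.125. For Cyp51 that value came from a dimmer probe. Hsd17b7, a reductase of the same branch, had 1 PB-NICD value and 1 control value, -0.29 and -0.36, that were not outlier spots.

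**Figure D3:**
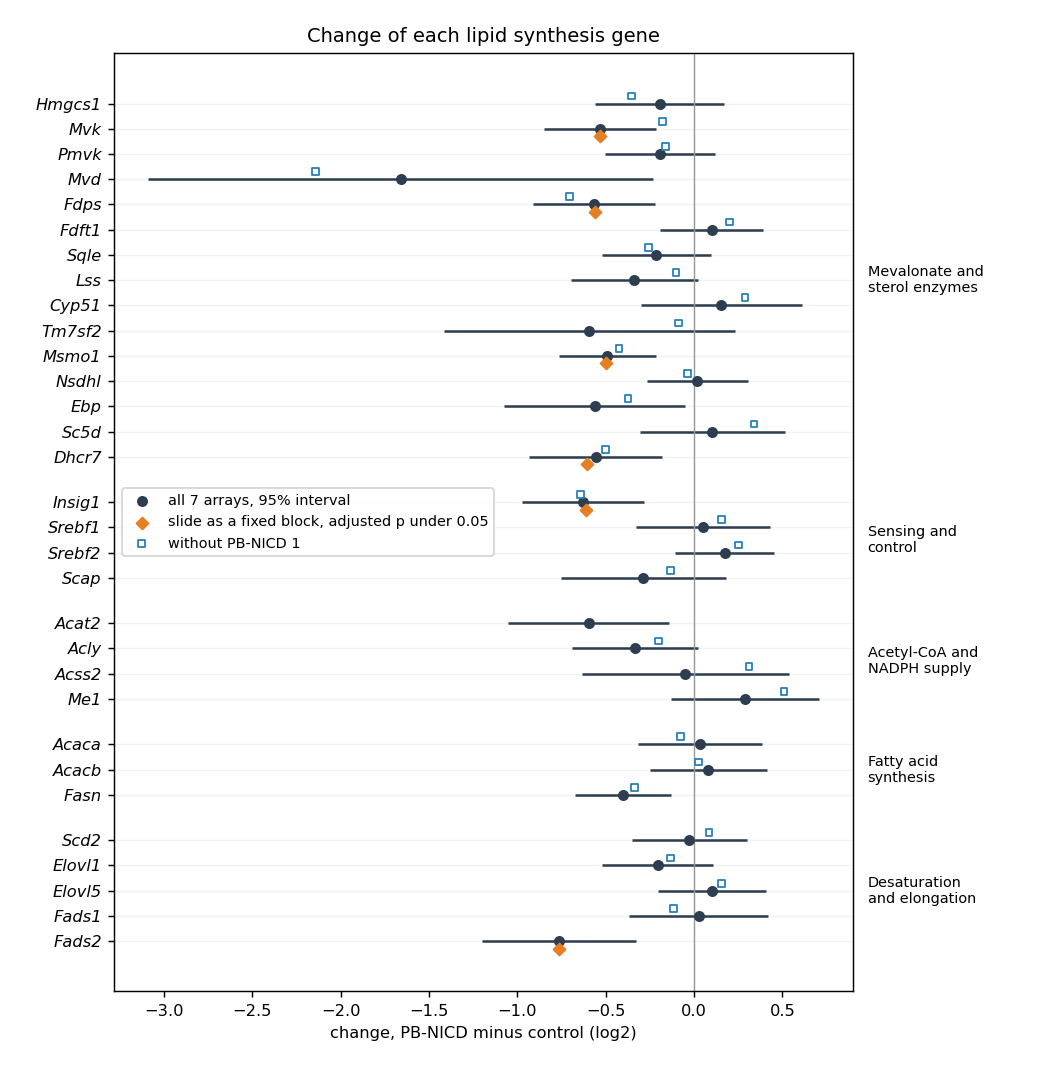
The change in log2 ratio, PB-NICD minus control (x axis), is plotted for each tested gene (rows, by role) with its 95% interval over all 7 arrays, as an open square without PB-NICD 1, and as a diamond for the 6 genes with an adjusted p under 0.05 with the slide as a fixed block. Fads2 and Acat2 have no open square, since only 1 PB-NICD value is left.

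Of the control genes, Insig1 alone had groups that did not overlap. Insig1, which holds SCAP in the endoplasmic reticulum, read -0.43, -0.67 and -0.26 on PB-NICD 1 to 3, against 0.08, 0.46, 0.07 and 0.10 on controls 1 to 4. All PB-NICD values were below 0, all control values above it, and control 2 was the highest. The change was -0.63 ± 0.15 (SE, n = 3 and 4, 95% interval -0.98 to -0.28), a ratio of 0.646 of control, with the lowest adjusted p of the set, 0.0704. The change was -0.70 within slide 1, -0.55 within slide 2 and -0.57 in the sample channel alone, and the reference channel differed by 0.06. A dimmer probe of Insig1 gave -0.60, and the mean over both probes -0.64 (adjusted p = 0.0378).

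The genes of SREBP itself did not share this pattern. Srebf1 read 0.96, 1.33 and 1.23 on PB-NICD 1 to 3, against 0.92, 1.23, 1.43 and 0.91 on controls 1 to 4. These values are interleaved, and the change was 0.05 (-0.33 to 0.43). Srebf2 read -0.86, -0.66 and -0.59 on PB-NICD 1 to 3, against -0.92, -0.88, -0.96 and -0.74 on controls 1 to 4. PB-NICD 2 and 3 lay above all controls and PB-NICD 1 among them. The change was 0.17 (-0.11 to 0.45, adjusted p = 0.625), and a dimmer probe gave 0.14. Scap, the escort of SREBP, read -0.37, 0.06 and 0.12 on PB-NICD 1 to 3, against 0.12 and 0.33 on controls 2 and 4, with the other controls dropped as outlier spots. The groups overlapped, and the change was -0.29 (-0.75 to 0.18).

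The 4 supply genes differed among themselves. Acat2, a thiolase that joins acetyl-CoA units for the mevalonate pathway, read -0.24 and 0.14 on PB-NICD 1 and 2, against 0.74, 0.55 and 0.34 on controls 1, 2 and 4. The change was -0.60 ± 0.19 (SE, adjusted p = 0.192). With the outlier spots kept, PB-NICD 3 held 0.44 and control 3, the highest of all, held 1.397, and the groups overlapped. The reference channel of Acat2 differed by 0.52 and the sample channel by -0.07. Me1, the malic enzyme that yields NADPH, had the largest positive change of the set. It read 0.16, 0.75 and 0.89 on PB-NICD 1 to 3, against 0.18, 0.28, 0.25 and 0.54 on controls 1 to 4. PB-NICD 2 and 3 lay above every control, while PB-NICD 1 lay below every control. The change was 0.29 ± 0.19 (SE, adjusted p = 0.569). Over the remaining 6 arrays, with PB-NICD 1 left out, it was 0.51 (adjusted p = 0.0608). Acly, which splits citrate into acetyl-CoA, had a change of -0.34 (-0.69 to 0.02), and 0.08 after centring each array on its median. Acss2, which makes acetyl-CoA from acetate, had -0.05 (-0.63 to 0.54), and 0.31 without PB-NICD 1, where it read 0.14 against 1.35 and 1.10 on PB-NICD 2 and 3.

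In fatty acid synthesis, Fasn read -0.21, -0.02 and -0.02 on PB-NICD 1 to 3, against 0.35, 0.43, 0.27 and 0.23 on controls 1 to 4. The groups did not overlap, and the change was -0.40 ± 0.12 (SE, adjusted p = 0.131). A dimmer probe of Fasn, well above background on 2 of the 4 controls, gave 0.19, the opposite sign. The acetyl-CoA carboxylases, which make malonyl-CoA, had changes of 0.03 for Acaca (-0.31 to 0.38) and 0.08 for Acacb (-0.25 to 0.41), with overlapping groups.

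Among the desaturases and elongases, Fads2, which opens the synthesis of polyunsaturated fatty acids, read -0.06 and 0.21 on PB-NICD 1 and 3, against 0.71, 0.56, 1.11 and 0.97 on controls 1 to 4. Both PB-NICD values lay well below the lowest control, and the outlier spot dropped on PB-NICD 2 held 0.21. The change was -0.77 ± 0.19 (SE, adjusted p = 0.0836), and with that spot kept -0.72 (adjusted p = 0.0416). Fads1, the next desaturase of that route, had a change of 0.03 (-0.37 to 0.42). Scd2, which introduces the double bond of monounsaturated fatty acids, had -0.03 (-0.35 to 0.30). The elongases Elovl1 and Elovl5, which lengthen fatty acids, had -0.21 (-0.52 to 0.11) and 0.10 (-0.20 to 0.41). Scd1 had outlier spots on PB-NICD 1 and 2. With them kept it read 1.71, 2.64 and 2.17 on PB-NICD 1 to 3, against 1.84, 2.04, 1.47 and 2.05 on controls 1 to 4, and the groups overlapped. Elovl6 was well above background on 1 PB-NICD and 1 control array.

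**Figure D4:**
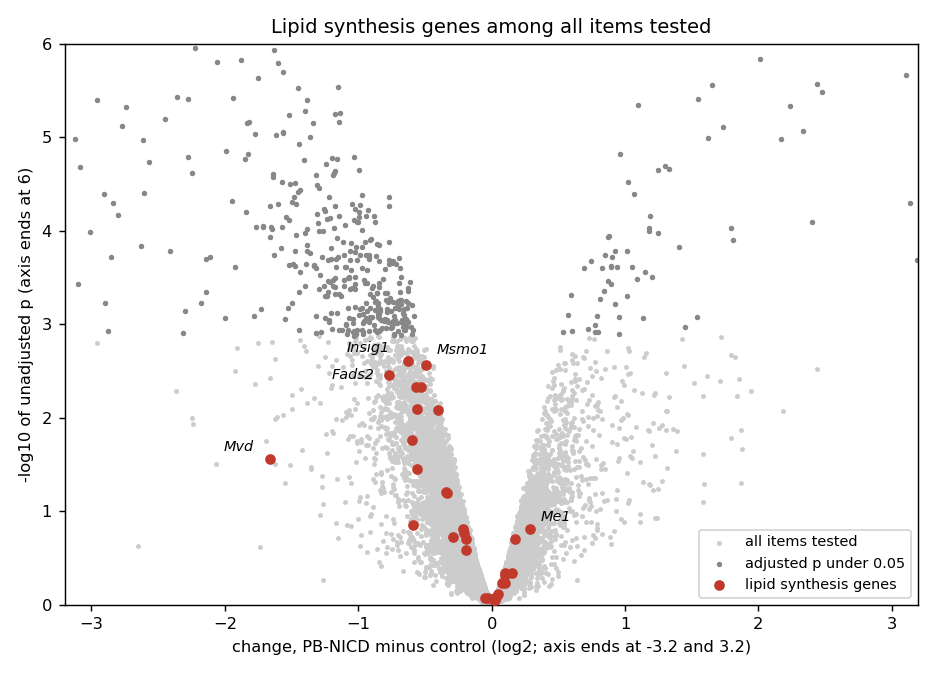
The change in log2 ratio (x axis) is plotted against the unadjusted p as -log10 (y axis, with some items beyond the ends of both axes) for all 16939 items in light grey, the 453 with an adjusted p under 0.05 in darker grey and the 31 lipid synthesis genes in red. The red points lie left and right of 0, with Insig1, Msmo1 and Fads2 highest and Mvd, at -1.66, farthest left.

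Other genes of lipid metabolism were counted from lists. Of 12 tested genes of the sterol pathway and of sterol uptake that are not in the set, of 11 of cholesterol efflux and storage, of 26 of fatty acid synthesis and esterification and of 13 of fatty acid oxidation, limma called none. At an unadjusted p of 0.05 the lower and higher counts were 0 and 1, 2 and 1, 5 and 2, and 3 and 0. Of all items, 11.8% were lower and 3.02% higher at that p. Their median changes were -0.03, -0.06, -0.05 and -0.0044, beside -0.05 for all items. With the slide as a fixed block, the lower and higher counts were 0 and 0, 2 and 1, 2 and 1, and 2 and 0. Of all items, 7.05% were called lower and 1.08% higher in that fit. Examples from these counts were chosen after their values were seen. Lpcat3, which remodels phospholipids, had -0.82 in that fit (adjusted p = 0.00379) and Plin2, which coats lipid droplets, -0.50 (0.0352). Mylip, a ubiquitin ligase that degrades lipoprotein receptors, had 0.94 (0.0421). Mylip read 1.23 and 3.15 on PB-NICD 1 and 2, with PB-NICD 3 missing, against 0.64 to 1.77 on the controls. Only PB-NICD 2 lay above them. Acsl3, an acyl-CoA synthetase, had -1.12 (0.00166), and Slc25a1, which exports citrate from mitochondria, -0.51 (0.0444). Idh1, which yields NADPH, had 0.47 (0.0481). Ehhadh, an enzyme of peroxisomal oxidation, had -1.26 (3.27e-04).

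Markers of cell types were read beside these genes, since in bulk tissue fewer cells of a type and less RNA per cell cannot be told apart. Of 15 adipocyte markers, 10 were tested and none was called. Changes below 0 were seen in 8 of the 10, while Lpl (0.19) and Adig (0.23) had changes above 0, with a median of -0.22. The mean ratio of the 5 measured on all arrays was 0.01, 0.12 and 0.33 on PB-NICD 1 to 3, against 0.63, 0.66, 0.19 and 0.38 on controls 1 to 4. The fat cell gene Cfd had the change of largest size among these markers, -1.27 (limma, adjusted p = 0.433). It read 0.04, 1.34 and 1.73 on PB-NICD 1 to 3, against 2.40, 3.57 and 0.94 on controls 1 to 3. Of 11 luminal markers, 9 were tested and none was called; 6 had changes below 0 and 3 (Fkbp5, Krt8 and Hoxb13) above it, with a median of -0.26. Probasin, Pbsn, read 9.06, 9.81 and 10.1 on PB-NICD 1 to 3, against 11.7, 11.3, 10.1 and 10.4 on controls 1 to 4, so this defining prostate gene was far above the reference RNA on every array. The luminal secretory gene Sbp read 0.54, 4.75 and 9.44 on PB-NICD 1 to 3, against 11.5, 10.4, 10.1 and 9.50 on controls 1 to 4, and had the change of largest size in the list. All 4 basal markers had changes below 0, and Krt5 (-1.87, adjusted p = 4.30e-04) and Krt15 (-1.48, 0.0177) fell. All 5 smooth muscle markers had changes below 0, with a median of -0.58 and none called. The urothelial gene Upk3a read 5.25 and 4.23 on PB-NICD 1 and 2, against -0.06 and -0.19 on controls 2 and 4. Its other spots were dropped as outliers. Upk3a rose by 4.87 (limma, adjusted p = 0.00158) and was the only listed marker called higher. The other tested urothelial genes did not share this rise: Upk1b had a change of -1.16 and Upk2 of 0.07, and neither was called. The seminal vesicle gene Svs4 read 9.39 on control 2, against 3.42, 0.71 and 0.66 on PB-NICD 1 to 3 and -0.28 to 2.36 on the other controls. The part of these cell types in the lipid genes was not tested.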

How the data were processed

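RNA of 7 prostate samples was measured against a universal reference RNA on 2-colour Agilent arrays, with no dye swap, in 3 PB-NICD and 4 control samples. Per the file headers, Agilent Feature Extraction 10.7.3.1 read the spots. Intensity columns taken from the deposited files were the median, unnormalized signals of spot and local background, and the software's processed signals. The deposited LogRatio is the log10 of red over green. Other deposited columns are flags per spot (outlier, saturated, well above background). The authors' deposited value table holds what look like log2 ratios centred near 0, and the sources used here do not give its normalization. No spot was saturated, and 6.02% to 17.8% of spots were outliers. The arrays held 45018 spots and 41174 probes, of which 24379 were given a symbol through the RefSeq table of GRCm38.p6. The array design names an older build, so no coordinates come from the files.

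Background was corrected by normexp (offset 50), followed by loess within arrays, in limma 3.58.1 under R 4.3.3. Outlier spots were set to missing. Probes were tested where at least 3 arrays had a sample signal well above background and each group had at least 2 values, and the brightest tested probe stood for its gene. The offset draws ratios of dim genes towards 0. Groups were compared by lmFit and eBayes, two-sided; p was adjusted by Benjamini-Hochberg over 16939 items, at a threshold of 0.05. Number of arrays limits the precision.

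The genes and lists were chosen with earlier results of these data known. Among the 35 genes, values of every array are given for those called, for those whose groups did not overlap with an absolute change of at least 0.5, for the control genes and for the largest changes in each direction; Msmo1 and Fasn, just under that size, and Scd1 were added after their values were seen. Alternatives covered background correction, normalization, filters, probes, slide and leaving out each array.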

Additional observations from a re-analysis of the deposited data

Results flagged for a closer look

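In 3 of 25 lipid genes measured on all 4 controls, 1 control array lay far from the other 3. Msmo1 read 0.54 on control 1, where the other controls lay between 0.35 and 0.38, and the PB-NICD arrays all lay lower still. Insig1 read 0.46 on control 2, where the others lay between 0.07 and 0.10. Elovl1 read -0.072 on control 4, where the others lay between 0.25 and 0.28, and this value is why its groups overlap. Chance alone marks about 1 in 20 such groups. The 3 values came from 3 different arrays.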

How the results depend on the processing

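The lower count among the lipid genes was 0 as reported, beside 2.27% of all items. Shares of all items called lower are in brackets. The count was 6 without background subtraction (5.37%), 2 with the scanner software's processed signals (3.74%) and 7 in the value table (11.5%). With outlier spots kept it was 2 of 33 (2.76%), and with the mean over a gene's probes 1 (1.87%). With the slide as a fixed block it was 6 (7.05%), with it as a random block 5 (4.91%) and within slide 2 it was 3 (3.82%). Slide 1 rests on 1 PB-NICD array, assumed to vary like the controls, so no count is given for it. The higher count, also 0 as reported, was 2 with processed signals and 2 in the value table, Srebf2 and Me1 each time. Among all items, 453 as reported (68 higher, 385 lower), the calls numbered 1541 without background subtraction (632 higher, 909 lower), 1130 with processed signals (496 higher, 634 lower), 1 with each array centred on its median, 26 with scaling between arrays (9 higher, 17 lower), 287 in the sample channel alone, 3210 in the value table (1267 higher, 1943 lower), 1377 and 963 with the slide as a fixed and as a random block, and 1881 and 1089 within slides 1 and 2. The median change of the lipid genes, -0.21 as reported, was 0.0039 with processed signals, 0.098 with centring, -0.34 with scaling, -0.072 in the sample channel, -0.11 in the value table and -0.41 within slide 1. Leaving out each array in turn gave 0 to 1 lower lipid genes, beside 1.03% to 3.89% of items lower. Called items numbered 189 to 1065, and the median ran from -0.25 to -0.12. In 8 to 14 genes (27.6% to 46.7%) the PB-NICD values all lay below the controls, a count added after the data were seen. For items that share was 16.7% to 20.2%, against 14.3% with all 7 arrays, so it rose with any array left out. The lowest counts of genes apart and the highest count of items came without PB-NICD 1. Without PB-NICD 2 or any 1 control the items numbered 189 to 260. Aquantile leaves ratios as they are.

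Notch1 was not called with centring (1.45), scaling (1.46) or outlier spots kept (1.56). The following changes turned sign. With centring, Pmvk was 0.23, Sqle 0.11, Scap 0.10, Acly 0.075, Scd2 0.32, Elovl1 0.082 and Acss2 0.18. With scaling, Ebp was 1.29, Srebf2 -1.02, Acaca -0.34, Acacb -0.12, Scd2 0.35, Elovl5 -0.17, Fads1 -1.11 and Acss2 0.057. With processed signals, Pmvk was 0.045, Sqle 0.078, Scd2 0.071, Elovl1 0.075 and Acss2 0.0039. In the sample channel, Ebp was 0.11, Sc5d -0.0015, Acacb -0.040, Scd2 0.14 and Elovl1 0.16. Without background subtraction, Acacb was -0.0080, Scd2 0.070 and Acss2 0.055, and in the value table -0.023, 0.064 and 0.035 in that order. With an offset of 16, Scd2 was 0.0089, and with the mean over probes Nsdhl was -0.0080. Within slide 1, Hmgcs1 was 0.11, Fdft1 -0.063, Cyp51 -0.25, Sc5d -0.41, Srebf1 -0.12 and Me1 -0.070. Within slide 2, Acaca was -0.075, Acacb -0.057, Scd2 0.17 and Acss2 0.24. Leaving out 1 array in turn, changes ran from -0.077 to 0.18 for Acaca, -0.29 to 0.31 for Acss2, -0.12 to 0.19 for Fads1, -0.041 to 0.086 for Nsdhl, -0.034 to 0.34 for Sc5d, -0.10 to 0.085 for Scd2 and -0.030 to 0.16 for Srebf1. Mvk, Mvd, Fdps, Lss, Tm7sf2, Msmo1, Dhcr7, Acat2, Insig1, Fasn and Fads2 stayed below 0 in each alternative that gave them a value. The cause of these shifts was not tested.

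The replicate numbers are in the labels of both groups. Deviations of same-numbered samples correlated at r = 0.35, -0.38 and 0.26 for numbers 1 to 3. Samples numbered 1 shared a slide, as did those numbered 3, and those numbered 2 did not. These values therefore cannot tell whether the numbers pair the samples. A replicate block gave 0 lipid genes in either direction and 156 items, with Srebf1 at -0.023 and Fads1 at -0.051. The sample channel was dim, with a median signal of 88 to 107 on PB-NICD arrays and 69 to 87.5 on control arrays, which limits the dim genes.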
